A study of Mus musculus with 8 samples.

Results

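HC11 mouse mammary epithelial cells kept in growth medium, called normal or cycling (N), were compared with R1 mouse embryonic stem cells (ESC). The genes described are those with a level of at least 1 FPKM (fragments per kilobase of gene, scaled to the counted fragments of the library) in 2 or more of the 4 libraries of these groups. This took in 12706 of the 24062 genes in the table. The rule did not ask in which group the level was reached, but 1506 genes reached it in the ESC libraries alone and 750 in the N libraries alone. ESC were R1 cells of strain 129*1 * 129S1, labelled wild type and grown over inactivated embryonic fibroblasts in serum with leukemia inhibitory factor (LIF) and inhibitors of MEK and GSK. The methods describe a last passage onto plates without feeders, which relied on fibroblasts attaching faster, in serum medium for which neither LIF nor inhibitors are named. N cells were the HC11 line, which comes from mammary tissue of a BALB/c mouse, labelled wild type and grown to confluence in serum medium with epidermal growth factor (EGF) and insulin. HC11 cells are known to carry mutant alleles of p53. Each group was a single line with 2 libraries, and no source says that these were separate cultures, so p-values measure the spread between libraries, which may be technical. Line, strain, tissue of origin and medium differed together between the groups and cannot be told apart. Libraries of HC11 cells given hydrocortisone with insulin (P) and then prolactin (PRL), 2 of each, entered only the estimate of the spread.

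Embryonic stem cells hold a self-renewing state through a circuit of transcription factors led by Oct4 (the product of Pou5f1) and Sox2, which LIF and inhibition of MEK and GSK3 sustain. Mammary epithelium has a basal layer marked by keratins 5 and 14 and a luminal layer marked by keratins 8 and 18, and HC11 cells are a progenitor-like line from that tissue that can be induced to make milk protein. The comparison sets the expression program of a committed epithelial line beside that of a cell that has made no such choice.

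The libraries held 14707598 and 11938392 counted fragments in ESC and 23329830 and 22903215 in N. A single fragment in a gene of 1 kilobase was worth 0.0838 FPKM in the shallowest library and 0.0429 FPKM in the deepest of the 4. The ESC libraries were also the more variable pair, with a limma array weight of 0.139 each against 1.30 for each N library.

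N and ESC differed in a large share of their genes. Of 12706 genes, 4815 (37.9%) were called, with a log2 difference of at least 1 on the log2(FPKM + 1) scale and a limma adjusted p under 0.001. Calls higher in N numbered 2065 (16.3%) and calls higher in ESC 2750 (21.6%). These shares are the background for the count of any list. The median log2 difference, N minus ESC, was -0.10 over all genes. Most of the calls were moderate: 1279 higher in N and 1708 higher in ESC lay between 1 and 2 on the log2 scale, and 157 and 212 exceeded 4. Genes that reached 1 FPKM in both libraries of both groups supplied 1291 calls higher in N and 1387 higher in ESC of 9792. Those that reached it in the ESC libraries alone supplied 1315 of 1506, and those that reached it in the N libraries alone 561 of 750. A gene tested only because 1 group reached that level had its direction set by the filter, so such members add nothing to a list's direction. Listed at 0 in both N libraries were 405 genes called higher in ESC, and 75 called higher in N were listed at 0 in both ESC libraries. The fit pooled the spread of all 8 libraries. A fit of the 4 ESC and N libraries alone called 969 genes higher in N and 1555 higher in ESC, of which 966 and 1555 were among the calls above.

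**Figure D1:**
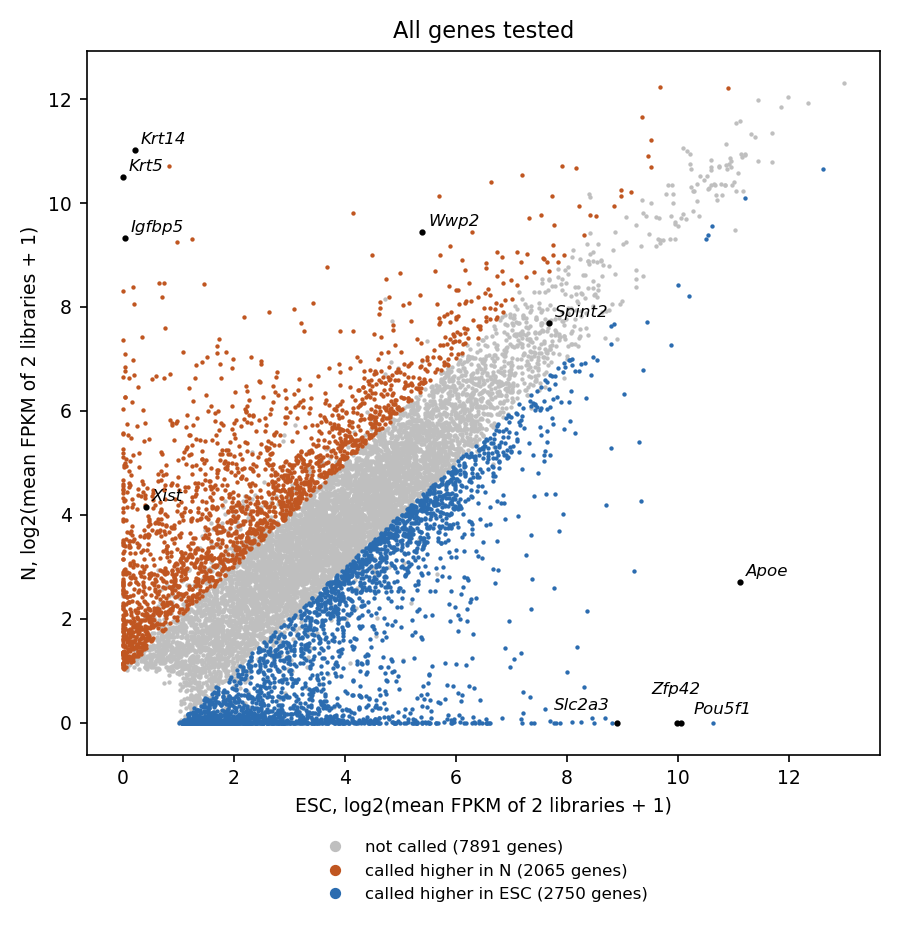
Mean level of each of the 12706 genes in ESC (x axis) and N (y axis), as log2(mean FPKM of 2 libraries + 1), coloured by call. The 2065 genes called higher in N lie above the diagonal and the 2750 called higher in ESC below it, and Krt5 and Pou5f1 lie on opposite axes.

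The 4 marker genes of the lines separated the groups without overlap. Pou5f1 stood at 1136 and 998 FPKM in ESC and 0 and 0 FPKM in N. Zfp42, which encodes the stem cell zinc finger protein Rex1, stood at 1094 and 927 FPKM in ESC and 0 and 0 FPKM in N. Both stem cell markers were listed at 0 in N. Krt14, a keratin of basal epithelium, stood at 0.123 and 0.202 FPKM in ESC and 2096 and 2058 FPKM in N, which was 3 and 4 fragments in ESC. Krt5, its partner keratin, was listed at 0 in both ESC libraries and reached 1452 and 1448 FPKM in N. The bases upstream of their annotated starts are shown, from RefSeq on GRCm38.p6, because these genes mark the groups. Each window is the 250 bases before the start, 5′ to 3′ on the gene's strand, and capitals mark the letters ATGCAAAT on either strand (ATTTGCAT on the other), the octamer that Oct4 and its relatives can bind.
Pou5f1, chr17:35505782-35506031, + strand: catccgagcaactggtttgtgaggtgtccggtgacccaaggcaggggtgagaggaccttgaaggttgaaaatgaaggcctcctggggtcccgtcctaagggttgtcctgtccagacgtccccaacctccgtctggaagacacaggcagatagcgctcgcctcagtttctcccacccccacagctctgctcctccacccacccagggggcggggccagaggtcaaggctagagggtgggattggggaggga
Zfp42, chr8:43307010-43307259, - strand: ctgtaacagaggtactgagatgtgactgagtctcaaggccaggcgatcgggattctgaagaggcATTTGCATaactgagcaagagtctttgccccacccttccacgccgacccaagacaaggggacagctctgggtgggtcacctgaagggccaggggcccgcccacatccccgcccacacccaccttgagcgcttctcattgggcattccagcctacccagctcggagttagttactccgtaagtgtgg
Krt14, chr11:100206031-100206280, - strand: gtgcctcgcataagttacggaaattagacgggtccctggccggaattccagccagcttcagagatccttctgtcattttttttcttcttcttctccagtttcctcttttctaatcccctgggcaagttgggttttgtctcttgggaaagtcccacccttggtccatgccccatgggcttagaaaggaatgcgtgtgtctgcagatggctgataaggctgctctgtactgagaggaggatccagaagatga
Krt5, chr15:101712906-101713155, - strand: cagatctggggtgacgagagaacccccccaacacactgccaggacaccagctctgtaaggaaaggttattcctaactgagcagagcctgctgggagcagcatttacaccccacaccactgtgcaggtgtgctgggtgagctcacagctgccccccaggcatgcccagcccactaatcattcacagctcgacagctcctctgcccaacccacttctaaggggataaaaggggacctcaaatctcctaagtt
The octamer letters occurred in the Zfp42 window, 178 bases before the start, and not in the other windows shown. They occur in 1.60% of the 32851 promoter windows of the RefSeq table, and the match is a description of the sequence, not of binding.

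The whole pluripotency list followed its markers. All 20 of its 20 tested members were called higher in ESC, also in the fit of the 4 libraries alone and in each fit that left out 1 library, with a median log2 difference of -5.93 against -0.10 over all genes. Of the 20, 14 reached 1 FPKM in the ESC libraries alone. Sox2, the partner of Oct4, had 397 and 307 FPKM in ESC and 0.0698 and 0.0533 FPKM in N, which was 4 and 3 fragments in N. Esrrb, a nuclear receptor that holds the naive state, had 265 and 279.8 FPKM in ESC and 0 and 0.00945 FPKM in N. The members differed in how far they went: Sall4, Nr0b1 and Utf1 were listed at 0 in N, while some factors that epithelia also use kept a level there. Klf2, a Krüppel-like factor, had 691 and 563 FPKM in ESC and 40.9 and 42.0 FPKM in N (log2 difference -3.88 ± 0.10 (SE), limma adjusted p = 2.2e-07). Klf5, which basal epithelium is known to express, had 259 and 204 FPKM in ESC and 12.2 and 11.8 FPKM in N. Mybl2, a regulator of cell cycle genes, had 439 and 396 FPKM in ESC and 17.4 and 17.0 FPKM in N, and it too was lower in N than in either ESC library (log2 difference -4.52 ± 0.09).

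Other genes known from embryonic stem cells gave 21 calls higher in ESC and 1 higher in N of 22 tested (0 higher in N and 20 higher in ESC with the 4 libraries alone), with a median log2 difference of -5.88, and 19 reached 1 FPKM in the ESC libraries alone. Tdgf1, the coreceptor Cripto of Nodal signalling, had 336 and 384 FPKM in ESC and was listed at 0 in N. L1td1, an RNA-binding protein, had 169 and 158 FPKM in ESC and was also listed at 0 in N. Fbxo15, an F-box gene long used as a reporter of the state, had 125 and 169 FPKM in ESC and 0.0811 and 0.193 FPKM in N. The exception was Fut9, the enzyme that makes the SSEA-1 epitope, which was higher in N, at 0.425 and 0.286 FPKM in ESC and 2.67 and 3.42 FPKM in N. Its call did not pass with the 4 libraries alone (limma adjusted p = 0.00122).

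The 10 largest falls from ESC to N, at a mean of at least 10 FPKM, held 4 genes outside these lists. Apoe, the lipid carrier apolipoprotein E, was the most abundant of them, with 2186 and 2251 FPKM in ESC and 5.41 and 5.65 FPKM in N. Slc2a3, the high-affinity glucose transporter Glut3, had 472 and 485 FPKM in ESC and was listed at 0 in N. Trh, which encodes thyrotropin-releasing hormone, had 271 and 340.1 FPKM in ESC and 0 and 0.0315 FPKM in N, and Rps4l, a copy of the ribosomal protein gene Rps4x, had 398 and 429 FPKM in ESC and 0.0911 and 0.0464 FPKM in N. The rule took only genes whose groups did not overlap. Rps4l shares sequence with near copies, so reads of the family could be split between them.

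**Figure D2:**
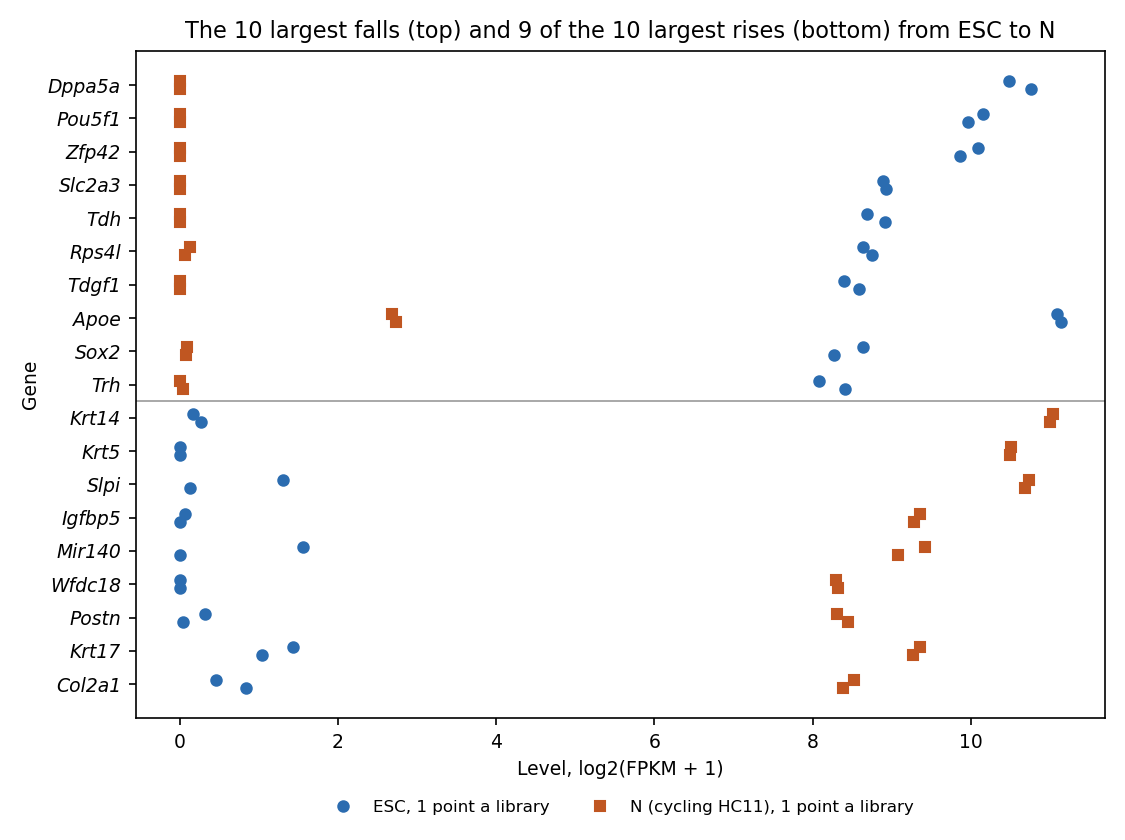
Level of the 10 genes with the largest fall and 9 of the 10 with the largest rise from ESC to N, as log2(FPKM + 1), with 1 point for each of the 2 libraries of a group. By the rule that chose them the groups do not overlap in any of them, and Dppa5a (1431 and 1736 FPKM in ESC) and Krt14 (2096 and 2058 FPKM in N) have the largest differences.

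The ESC libraries also held low levels of genes of early lineages. In each list below, members that reached 1 FPKM in the ESC libraries alone had their direction set by the filter. In the list of germ layer and primed-state genes, 5 of 9 tested members were called higher in ESC and 3 higher in N (2 higher in N and 3 higher in ESC with the 4 libraries alone; median -1.25), and 5 reached 1 FPKM in the ESC libraries alone. Zic2, a zinc finger factor of early ectoderm, had 11.7 and 11.2 FPKM in ESC and 0.0433 and 0.0441 FPKM in N, and Eomes, a factor of early mesendoderm, had 7.28 and 5.03 FPKM in ESC and 0.0923 and 0.0940 FPKM in N. Those higher in N were epithelial: Krt8, Krt18 and Tfap2c. Primitive endoderm genes gave 5 calls higher in ESC of 8 (4 with the 4 libraries alone), where 5 members reached 1 FPKM in the ESC libraries alone, Gata4 among them at 8.20 and 5.43 FPKM in ESC and 0 and 0.0129 FPKM in N. Dab2, an endocytic adaptor of that lineage, went the other way, at 2.86 and 0.923 FPKM in ESC and 63.1 and 62.0 FPKM in N. Genes of the 2-cell-like state, led by the Zscan4 cluster, gave 7 calls higher in ESC and 0 higher in N of 8 tested, but 7 of these reached 1 FPKM in the ESC libraries alone, so the filter set the direction of the count. Zscan4c had 11.4 and 10.5 FPKM in ESC and 0.245 and 0.288 FPKM in N, although the Zscan4 copies are nearly identical and reads could be split among them. Of 24 germ line genes 13 were tested, and all 13 were called higher in ESC (7 with the 4 libraries alone). All 13 reached 1 FPKM in the ESC libraries alone, so this direction too was set by the filter. The highest was Tex19.1, a germ cell and placental gene that holds retrotransposons in check, at 27.4 and 23.2 FPKM in ESC and 0.123 and 0.0251 FPKM in N.

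Most tested basal epithelial genes were higher in N. Of 17 tested genes of basal mammary epithelium, 13 were called higher in N and 0 higher in ESC (10 higher in N and 0 higher in ESC with the 4 libraries alone), with a median log2 difference of 3.79, and 7 reached 1 FPKM in the N libraries alone. Krt17, a further basal keratin, had 1.71 and 1.05 FPKM in ESC and 657 and 615 FPKM in N. Col17a1, a transmembrane collagen of hemidesmosomes, had 0.933 and 0.408 FPKM in ESC and 102 and 94.5 FPKM in N (log2 difference 5.91 ± 0.15, limma adjusted p = 2.28e-07). Itgb4, the integrin chain that anchors hemidesmosomes, had 6.86 and 4.28 FPKM in ESC and 88.0 and 88.0 FPKM in N (log2 difference 3.79 ± 0.17). The p63 factor that commands this layer was at a lower level: Trp63 had 0.0112 and 0 FPKM in ESC and 15.6 and 15.6 FPKM in N. Igfbp5, a secreted binder of insulin-like growth factors, had 0.0465 and 0 FPKM in ESC and 658 and 622 FPKM in N. Of the list, Itga6, the alpha chain that pairs with Itgb4, did not pass the test, with 27.7 and 23.1 FPKM in ESC and 19.9 and 22.3 FPKM in N (limma adjusted p = 0.0732).

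Contractile genes of myoepithelium were divided. Of the 8 tested, 2 reached 1 FPKM in the ESC libraries alone and 2 in the N libraries alone, so the filter set their direction. Acta2, smooth muscle actin, had 5.05 and 2.12 FPKM in ESC and 0.933 and 0.526 FPKM in N and did not pass the test (limma adjusted p = 0.00501), and Des, the intermediate filament desmin, was higher in ESC at 4.61 and 3.25 FPKM in ESC and 0.140 and 0.114 FPKM in N. Of 8 tested contractile genes, 3 were called higher in N, among them Tpm2 (tropomyosin 2, 5.56 and 2.39 FPKM in ESC and 54.8 and 52.4 FPKM in N). With the 4 libraries alone 0 were (Tpm2 adjusted p = 0.00101), and when either N library was left out 2 were.

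Most tested luminal genes were higher in N too, and the line carried both keratin pairs. Of 19 tested luminal genes, 13 were called higher in N and 4 higher in ESC (11 higher in N and 3 higher in ESC with the 4 libraries alone; median 2.68), and 7 reached 1 FPKM in the N libraries alone. Krt8 had 29.7 and 17.6 FPKM in ESC and 239 and 228 FPKM in N, and Krt18 had 11.8 and 7.06 FPKM in ESC and 77.2 and 73.3 FPKM in N. Their ESC level was low but above 0, and the N levels lay below those of Krt5 and Krt14 per kilobase. Krt7, another simple epithelial keratin, had 0.214 and 0.0528 FPKM in ESC and 128 and 123 FPKM in N. Lcn2, the iron-scavenging lipocalin, had 0.239 and 0.196 FPKM in ESC and 91.2 and 83.0 FPKM in N (log2 difference 6.18 ± 0.07), and Cd24a, a surface marker of luminal cells, had 39.7 and 57.3 FPKM in ESC and 409 and 417 FPKM in N (log2 difference 3.09 ± 0.16). Krt19, a keratin of mature luminal cells, ran against the list, with 4.85 and 3.66 FPKM in ESC and 0.0936 and 0.0953 FPKM in N (log2 difference -2.25 ± 0.12). Elf3, an ETS factor of epithelia, was also higher in ESC, at 60.6 and 53.9 FPKM in ESC and 12.7 and 12.2 FPKM in N. Sox9, a progenitor factor, had 4.25 and 0.444 FPKM in ESC and 162 and 169 FPKM in N, and it passed the test with all 8 libraries (limma adjusted p = 4.81e-05) but not with the 4 alone (0.00136).

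Casein genes and Wap were at or near 0 in both groups. The caseins Csn1s1 and Csn1s2a and the whey protein gene Wap were listed at 0 in all 4 libraries, and Csn2, the beta-casein that HC11 cells make after prolactin, had 0 and 0.0763 FPKM in N. Of the wider list, 3 genes were tested and 1 was called higher in N, the milk fat butyrophilin Btn1a1 at 0.355 and 0.194 FPKM in ESC and 2.23 and 2.25 FPKM in N, which did not pass with the 4 libraries alone (limma adjusted p = 0.00108). Mfge8, a milk fat globule protein, had 112 and 63.9 FPKM in ESC and 77.8 and 72.3 FPKM in N and did not pass (limma adjusted p = 0.509).

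Several of the largest rises were genes of stratified and secretory epithelia. Slpi, a secreted protease inhibitor, had 1.47 and 0.0956 FPKM in ESC and 1704 and 1647 FPKM in N. Wfdc18, a small secreted protein of the same domain family as Slpi, was listed at 0 in ESC and reached 314 and 318 FPKM in N. Of 15 tested genes of stratified epithelium, 12 were called higher in N and 1 higher in ESC (11 higher in N and 1 higher in ESC with the 4 libraries alone; median 2.37), and 8 reached 1 FPKM in the N libraries alone. Pkp1, a desmosomal plakophilin, had 0.0606 and 0 FPKM in ESC and 109 and 106 FPKM in N. Dsg3, the desmosomal cadherin of basal skin, had 0.0331 and 0.0408 FPKM in ESC and 32.9 and 32.5 FPKM in N (log2 difference 5.02 ± 0.08), and Krt16 had 0.348 and 0.107 FPKM in ESC and 34.9 and 35.9 FPKM in N (log2 difference 4.90 ± 0.11). Barx2, a homeobox factor, had 0.0380 and 0 FPKM in ESC and 31.6 and 27.2 FPKM in N. The gene higher in ESC was Grhl3, a grainyhead factor of surface ectoderm, at 16.6 and 11.3 FPKM in ESC and 1.54 and 1.30 FPKM in N. Ivl, the cornified envelope protein involucrin, had 0 and 0.0435 FPKM in ESC and 0.0223 and 0 FPKM in N.

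Junction genes were present in both lines and divided between them. Of 28 tested, 14 were called higher in N and 3 higher in ESC (11 higher in N and 3 higher in ESC with the 4 libraries alone; median 1.24). Claudins differed by member. Cldn3 had 2.58 and 3.58 FPKM in ESC and 79.9 and 83.4 FPKM in N, and Cldn6, a claudin of early embryonic epithelium, had 20.1 and 20.1 FPKM in ESC and 0.0854 and 0.0870 FPKM in N. The pair differed in opposite directions with similar size (log2 differences 4.35 ± 0.11 and -4.28 ± 0.08). Epcam, the epithelial adhesion molecule, had 49.5 and 68.9 FPKM in ESC and 244 and 233 FPKM in N. Rab25, an epithelial trafficking GTPase, had 1.41 and 1.42 FPKM in ESC and 69.5 and 74.4 FPKM in N (log2 difference 4.92 ± 0.07). Spint2, a protease inhibitor, was nearly level at 201 and 207 FPKM in ESC and 207 and 205 FPKM in N (log2 difference 0.01 ± 0.06, limma adjusted p = 0.857).

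Matrix genes higher in N included some best known from other tissues. Col2a1, the collagen of cartilage, had 0.371 and 0.783 FPKM in ESC and 368 and 334 FPKM in N, and Postn, the matricellular protein periostin, had 0.248 and 0.0254 FPKM in ESC and 317 and 348 FPKM in N. Sparc, a collagen-binding matrix protein, had 104 and 82.3 FPKM in ESC and 435 and 428 FPKM in N (log2 difference 2.21 ± 0.11). Of 21 tested genes of basement membrane and integrins, 6 were called higher in N and 5 higher in ESC (5 higher in N and 5 higher in ESC with the 4 libraries alone; median 0.19). Lamb3, the beta chain of the epidermal laminin, had 1.29 and 1.27 FPKM in ESC and 89.1 and 83.7 FPKM in N. Lama1, the alpha chain of embryonic laminin, had 19.03 and 14.3 FPKM in ESC and 0.00901 and 0.00459 FPKM in N. Nid1 and Nid2, the nidogens that join laminin to collagen IV, were listed at 0 in N, with 36.1 and 21.1 FPKM in ESC for Nid1 and 81.6 and 93.7 FPKM in ESC for Nid2. The embryonic laminin chain was higher in ESC and the epidermal chain higher in N. Itgb1, the common integrin beta chain, had 57.6 and 55.0 FPKM in ESC and 231 and 233 FPKM in N (log2 difference 2.02 ± 0.07).

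Fibroblast genes were spread widely between the ESC libraries, which came from cultures begun on fibroblast feeders. Of 18 tested genes of the fibroblast list, 6 were called higher in N and 2 higher in ESC (2 higher in N and 0 higher in ESC with the 4 libraries alone). Its summed level was 482 and 149 FPKM in the ESC libraries and 1169 and 1163 FPKM in the N libraries, and 16 of the 20 members whose ESC mean reached 1 FPKM were more than 2-fold higher in ESC replicate 1 than in replicate 2. Calls higher in ESC numbered 3 without ESC replicate 1, 8 without ESC replicate 2 and 0 when either N library was left out, where calls higher in N numbered 3. Of the 24 members listed, only Lum and Fap were at 0 in both ESC libraries, and Lum also in N. Among factors of the mesenchymal switch, Zeb1 was higher in ESC, at 5.70 and 4.10 FPKM in ESC and 0.148 and 0.158 FPKM in N (log2 difference -2.34 ± 0.13), and Snai1 higher in N, at 17.5 and 14.1 FPKM in ESC and 46.3 and 48.6 FPKM in N (log2 difference 1.54 ± 0.12). Fn1, fibronectin, had 212 and 218 FPKM in ESC and 641 and 525 FPKM in N (log2 difference 1.43 ± 0.12). Vim, vimentin, had 327 and 141 FPKM in ESC and 174 and 164 FPKM in N, and N lay between the 2 ESC libraries (limma adjusted p = 0.385). This list of 7 tested genes gave 4 calls higher in N and 1 higher in ESC (2 higher in N and 1 higher in ESC with the 4 libraries alone, and 2 higher in N when either N library was left out).

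**Figure D3:**
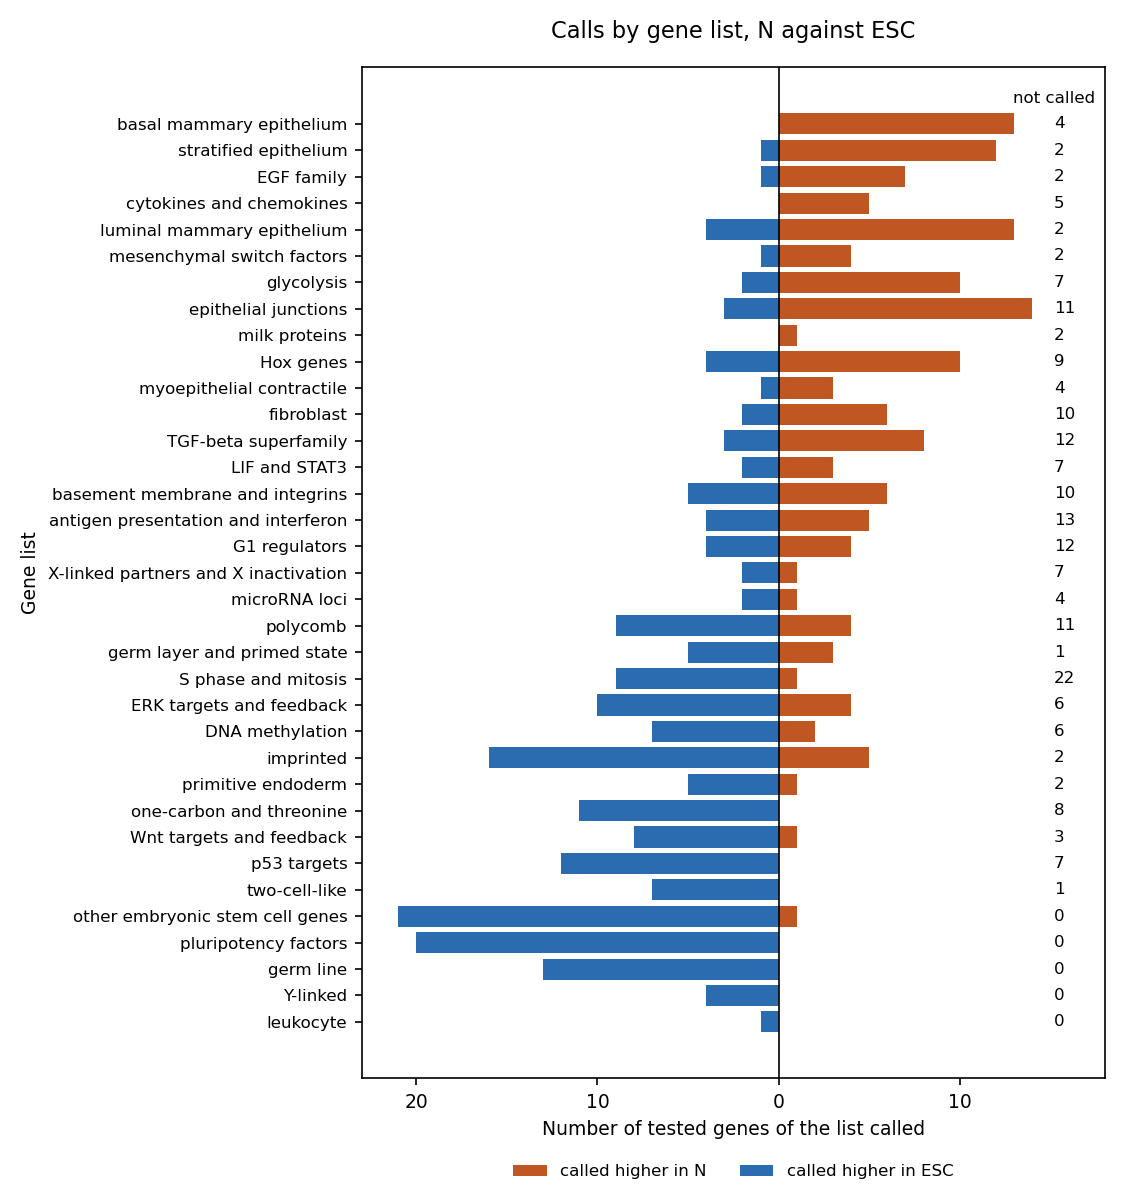
Number of tested genes of each list called higher in N (right) and higher in ESC (left), with the number not called at the right edge. Pluripotency (0 and 20) and germ line (0 and 13) lie at one end, and basal mammary epithelium (13 and 0) at the other. The filter set the direction of genes that reached 1 FPKM in 1 group alone. Among them were all 13 germ line, 14 of 20 pluripotency and 7 of 17 basal genes.

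ERK targets and feedback genes were called in both directions. Egr1, an immediate-early zinc finger factor, had 0.642 and 1.28 FPKM in ESC and 49.1 and 60.3 FPKM in N (log2 difference 4.84 ± 0.24, limma adjusted p = 3.54e-06), and Fos, a component of AP-1, had 2.73 and 1.60 FPKM in ESC and 52.1 and 57.5 FPKM in N (log2 difference 4.16 ± 0.27). Both were higher in N than in either ESC library. Spry4, a feedback inhibitor of receptor signalling, had 52.2 and 61.0 FPKM in ESC and 0.0560 and 0.0380 FPKM in N, and Etv5, an ETS factor downstream of FGF, had 155 and 149 FPKM in ESC and 8.48 and 8.26 FPKM in N. Both were higher in ESC (log2 differences -5.78 ± 0.10 and -4.03 ± 0.09). Over the list of 20, 4 were called higher in N and 10 higher in ESC (2 higher in N and 7 higher in ESC with the 4 libraries alone, and 2 higher in N when either N library was left out; median -1.21). Dusp6, a feedback phosphatase of ERK, had 39.2 and 34.4 FPKM in ESC and 58.5 and 67.1 FPKM in N and a log2 difference of 0.75 ± 0.10, under the fold required.

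Genes of the EGF receptor family and its ligands were called in both directions, more of them higher in N. Erbb2, the receptor Her2, had 7.47 and 5.21 FPKM in ESC and 28.3 and 28.1 FPKM in N (log2 difference 2.01 ± 0.14), and Tgfa, a ligand of EGFR, had 0.579 and 0.555 FPKM in ESC and 14.1 and 12.7 FPKM in N (log2 difference 3.20 ± 0.09). Hbegf, another ligand of EGFR, had 15.03 and 15.1 FPKM in ESC and 0.523 and 0.533 FPKM in N and was the member higher in ESC (log2 difference -3.39 ± 0.10). In all, 7 of 10 were called higher in N and 1 higher in ESC, with a median of 1.41. With the 4 libraries alone, 3 were higher in N and 1 higher in ESC. Of the 10, 4 reached 1 FPKM in the N libraries alone and 2 in the ESC libraries alone, so the filter set their direction. Wnt targets gave 8 calls higher in ESC and 1 higher in N of 12, with a median of -1.32. With the 4 libraries alone, 1 was higher in N and 4 higher in ESC. Of the 12, 6 reached 1 FPKM in the ESC libraries alone and 1 in the N libraries alone, so the filter set their direction. Without N replicate 1 or 2, 5 and 4 were higher in ESC. Axin2, the standard feedback target of the pathway, had 12.4 and 11.6 FPKM in ESC and 0 and 0.0103 FPKM in N, and Cdx1, a caudal homeobox gene, had 28.6 and 33.3 FPKM in ESC and was listed at 0 in N. Nkd2, a Dishevelled antagonist, was the gene higher in N, at 0.865 and 0.728 FPKM in ESC and 105 and 101 FPKM in N. GSK inhibition is known to activate this pathway. The medium on feeders held a GSK inhibitor, but none is named for the last passage, so whether it was present at harvest is not known, and medium cannot be told apart from line.

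LIF and STAT3 genes gave no common direction, with 3 higher in N and 2 higher in ESC of 12 (2 higher in N and 2 higher in ESC with the 4 libraries alone; median 0.03). Osmr, the oncostatin M receptor, had 1.07 and 0.225 FPKM in ESC and 25.9 and 26.8 FPKM in N, whereas the kinase gene Pim3 had 114 and 122 FPKM in ESC and 14.5 and 13.6 FPKM in N. Socs3, the feedback inhibitor of STAT3, had 51.0 and 55.8 FPKM in ESC and 69.2 and 64.4 FPKM in N and did not pass (limma adjusted p = 0.0371). In the TGF-beta superfamily, Bmp4 had 82.9 and 49.7 FPKM in ESC and 0.0215 and 0 FPKM in N, and Smad7, an inhibitory Smad, had 49.7 and 29.0 FPKM in ESC and 3.74 and 3.42 FPKM in N. Both were higher in ESC (log2 differences -6.01 ± 0.22 and -3.09 ± 0.22). Id1 and Id2, targets of BMP signalling that block basic helix-loop-helix factors, were higher in N. Id2 had 6.95 and 9.15 FPKM in ESC and 92.9 and 102 FPKM in N, and Id1 had 63.5 and 61.9 FPKM in ESC and 170.4 and 153 FPKM in N. The list of 23 gave 8 calls higher in N and 3 higher in ESC (median 1.09), 2 higher in N and 2 higher in ESC with the 4 libraries alone, 13 higher in N without ESC replicate 1 and 3 when either N library was left out.

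Several regulators of DNA methylation known from stem cells were higher in ESC, while the maintenance enzyme did not pass the test. Trim28, a corepressor of retroelements, had 664 and 665 FPKM in ESC and 115 and 103 FPKM in N (log2 difference -2.60 ± 0.07), and Zfp57, its DNA-binding partner at imprinted loci, had 173 and 114 FPKM in ESC and 0.0266 and 0.0676 FPKM in N. Dnmt3b, a de novo methyltransferase, had 26.5 and 21.5 FPKM in ESC and 1.05 and 1.16 FPKM in N, and Dnmt3l, its cofactor without catalytic activity, had 199 and 267 FPKM in ESC and was listed at 0 in N. Dnmt1, the maintenance methyltransferase, had 65.8 and 67.4 FPKM in ESC and 63.0 and 60.6 FPKM in N (limma adjusted p = 0.172). Uhrf1, which brings Dnmt1 to replicated DNA, had 157 and 161 FPKM in ESC and 42.9 and 39.1 FPKM in N and was called higher in ESC (log2 difference -1.93 ± 0.11). Tet1, which oxidizes methylcytosine, had 18.8 and 18.7 FPKM in ESC and 1.19 and 1.18 FPKM in N. Of 15 genes of this list, 2 were called higher in N and 7 higher in ESC (0 higher in N and 6 higher in ESC with the 4 libraries alone, and 1 higher in N when either N library was left out; median -0.58).

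Polycomb genes gave 4 calls higher in N and 9 higher in ESC of 24, against 16.3% and 21.6% of all genes. The median was -0.26, and with the 4 libraries alone 0 were higher in N and 7 higher in ESC. Ezh2, the catalytic subunit, had 42.0 and 61.2 FPKM in ESC and 41.2 and 40.3 FPKM in N and did not pass (limma adjusted p = 0.119). Its partner Eed, which reads trimethylated H3K27, had 156 and 184 FPKM in ESC and 20.1 and 18.97 FPKM in N (log2 difference -3.05 ± 0.11), and the accessory subunits Jarid2 and Mtf2 were also higher in ESC (log2 differences -3.51 ± 0.14 and -2.60 ± 0.08). Cbx7, the chromobox reader of stem cells, had 60.5 and 73.1 FPKM in ESC and 2.36 and 3.58 FPKM in N. E130012A19Rik, which encodes the polycomb-associated protein Epop, had 385 and 272 FPKM in ESC and 2.89 and 3.97 FPKM in N, the largest difference of the list (log2 -6.21 ± 0.18). Calls higher in N, among them Cbx8 and Bmi1, numbered 2 without N replicate 1 and 1 without N replicate 2.

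Imprinted genes were called in both directions. Of 23 tested, 16 were called higher in ESC and 5 higher in N, with a median of -1.76. With the 4 libraries alone, 8 were higher in ESC and 3 higher in N. Of the 23, 12 reached 1 FPKM in the ESC libraries alone and 2 in the N libraries alone, so the filter set their direction. The noncoding genes of the Dlk1-Dio3 locus were listed at 0 in N: Rian had 47.7 and 28.8 FPKM in ESC, Meg3 had 17.6 and 9.73 FPKM in ESC and Mirg had 15.7 and 10.6 FPKM in ESC. Peg10, a gene derived from a retrotransposon, had 26.8 and 17.6 FPKM in ESC and was listed at 0 in N, as was its neighbour Sgce. Phlda2, a maternally expressed growth suppressor, had 44.9 and 48.9 FPKM in ESC and 1.51 and 0.770 FPKM in N (log2 difference -4.50 ± 0.17). H19 and Peg3 ran the other way. H19, the maternal noncoding RNA, had 6.29 and 3.30 FPKM in ESC and 72.2 and 80.7 FPKM in N (log2 difference 3.79 ± 0.22), and Peg3, a paternally expressed zinc finger gene, had 6.28 and 5.18 FPKM in ESC and 21.8 and 21.0 FPKM in N (log2 difference 1.74 ± 0.11).

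The sex chromosomes of the lines differed. The 4 tested Y-linked genes reached 1 FPKM in the ESC libraries alone and were listed at 0 in N, and Eif2s3y, a translation initiation factor, had 37.7 and 34.6 FPKM in ESC. Xist, the noncoding RNA that coats the inactive X chromosome, had 0.315 and 0.351 FPKM in ESC and 16.2 and 17.4 FPKM in N (log2 difference 3.74 ± 0.08, limma adjusted p = 1.1e-07). Tsix, which runs antisense to it, had 1.88 and 2.72 FPKM in ESC and 0.0697 and 0.0608 FPKM in N, and without strand reads of the overlapping pair cannot be told apart. The Tsix call did not pass with the 4 libraries alone (limma adjusted p = 0.00128). Over X-linked partners of Y genes and X inactivation genes, 1 of 10 was higher in N and 2 higher in ESC (1 higher in N and 1 higher in ESC with the 4 libraries alone; median -0.01). Ddx3x was nearly level at 98.6 and 109 FPKM in ESC and 95.0 and 104 FPKM in N (limma adjusted p = 0.512), while Usp9x, a deubiquitinase, had 45.6 and 44.2 FPKM in ESC and 16.6 and 16.6 FPKM in N and was higher in ESC. Any part of sex in the other results cannot be told apart from the line.

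Proliferation genes were present in both groups, and most did not pass the test. Mcm2 and Mcm5, subunits of the replicative helicase, had 181 and 216 FPKM in ESC and 49.6 and 46.9 FPKM in N for Mcm2 and 239 and 286 FPKM in ESC and 74.6 and 67.5 FPKM in N for Mcm5 (log2 differences -2.02 ± 0.09 and -1.87 ± 0.11). Mki67, the proliferation antigen Ki-67, had 20.4 and 16.7 FPKM in ESC and 25.1 and 25.6 FPKM in N, and Cdk1, the mitotic kinase, had 47.6 and 62.7 FPKM in ESC and 50.0 and 48.6 FPKM in N. Neither passed the test (limma adjusted p = 0.00803 and 0.323). Of 32 genes of S phase and mitosis, 1 was called higher in N and 9 higher in ESC (0 higher in N and 4 higher in ESC with the 4 libraries alone; median -0.51), against 16.3% and 21.6% of all genes, and calls higher in ESC numbered 6 without ESC replicate 2, N replicate 1 or N replicate 2. Regulators of G1 gave 4 calls higher in N and 4 higher in ESC of 20 (3 higher in N and 1 higher in ESC with the 4 libraries alone; median 0.26), and 7 higher in N without ESC replicate 1. Cdkn2a, the locus of p16 and p19Arf, had 22.3 and 16.6 FPKM in ESC and 106 and 109.6 FPKM in N (log2 difference 2.43 ± 0.13), and Rb1, the retinoblastoma gene, had 3.09 and 2.39 FPKM in ESC and 15.9 and 15.6 FPKM in N (log2 difference 2.17 ± 0.11). Cdk2, the kinase of the G1 to S step, had 60.3 and 68.3 FPKM in ESC and 25.5 and 24.4 FPKM in N (log2 difference -1.33 ± 0.09).

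Most tested targets of p53 were called higher in ESC. Of 19 tested, 12 were called higher in ESC and 0 higher in N (0 higher in N and 9 higher in ESC with the 4 libraries alone; median -1.70). Trp53 itself had 268 and 274 FPKM in ESC and 83.6 and 82.3 FPKM in N (log2 difference -1.70 ± 0.06). Trp53inp1, a stress-induced nuclear protein, had 50.0 and 43.3 FPKM in ESC and 2.86 and 3.59 FPKM in N (log2 difference -3.50 ± 0.12), and Eda2r, a receptor of the tumour necrosis factor family, had 12.8 and 12.5 FPKM in ESC and 0.0147 and 0.00751 FPKM in N. Pmaip1, the proapoptotic gene Noxa, had 20.2 and 13.03 FPKM in ESC and 0.468 and 0.428 FPKM in N (log2 difference -3.57 ± 0.19), and Bax had 282 and 369.6 FPKM in ESC and 67.4 and 81.8 FPKM in N (log2 difference -2.10 ± 0.14). The targets did not all move: Cdkn1a, the inhibitor p21, had 93.5 and 92.4 FPKM in ESC and 64.4 and 69.0 FPKM in N, under the fold required (log2 difference -0.47 ± 0.06), and Sesn1, a sestrin, had 5.95 and 5.57 FPKM in ESC and 5.07 and 4.85 FPKM in N (limma adjusted p = 0.0538).

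Most enzymes called in glycolysis were higher in N, although the glucose transporter Slc2a3 was not. Of 19 tested genes of glycolysis, 10 were called higher in N and 2 higher in ESC (7 higher in N and 1 higher in ESC with the 4 libraries alone; median 1.10). Ldha, lactate dehydrogenase A, had 245 and 237 FPKM in ESC and 1725 and 1606 FPKM in N (log2 difference 2.78 ± 0.07), and Pgk1, phosphoglycerate kinase, had 275 and 296 FPKM in ESC and 1689 and 1576 FPKM in N (log2 difference 2.51 ± 0.07). Pkm, pyruvate kinase, had 581 and 725 FPKM in ESC and 3323 and 3115 FPKM in N (log2 difference 2.31 ± 0.11). All were higher in both N libraries than in either ESC library. Gapdh had 2079 and 2148 FPKM in ESC and 3078 and 2907 FPKM in N (log2 difference 0.50 ± 0.07, under the fold required), and Slc2a1, the widespread transporter Glut1, had 62.3 and 62.7 FPKM in ESC and 82.2 and 80.2 FPKM in N (log2 difference 0.37 ± 0.06).

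Several enzyme genes of threonine, glycine and one-carbon metabolism were called higher in ESC. Tdh, threonine dehydrogenase, had 413 and 483 FPKM in ESC and was listed at 0 in N. Gldc, the decarboxylase of the glycine cleavage system, had 53.1 and 70.4 FPKM in ESC and 0 and 0.0115 FPKM in N, and Amt, its aminomethyltransferase, had 77.4 and 74.5 FPKM in ESC and 4.04 and 3.99 FPKM in N. Shmt1, the cytosolic serine hydroxymethyltransferase, had 63.3 and 60.0 FPKM in ESC and 16.7 and 16.2 FPKM in N (log2 difference -1.85 ± 0.07). By contrast Phgdh, which opens serine synthesis, had 200.3 and 124 FPKM in ESC and 129 and 133 FPKM in N, where N lay within the range of the ESC libraries (limma adjusted p = 0.258). Of 19 genes, 11 were called higher in ESC and 0 higher in N (0 higher in N and 6 higher in ESC with the 4 libraries alone; median -1.17).

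Hox genes differed by cluster. In the Hoxb cluster, 7 of 8 tested genes were called higher in N, with Hoxb2 at 1.96 and 0.668 FPKM in ESC and 15.8 and 15.7 FPKM in N, Hoxb3 at 0.439 and 0.135 FPKM in ESC and 6.22 and 6.65 FPKM in N and Hoxb6 at 1.03 and 0.444 FPKM in ESC and 9.82 and 9.45 FPKM in N. Posterior genes of other clusters were higher in ESC. Hoxc13 had 9.84 and 8.30 FPKM in ESC and 1.59 and 1.97 FPKM in N (log2 difference -1.86 ± 0.13), Hoxc12 had 5.73 and 5.27 FPKM in ESC and Hoxd13 had 2.22 and 2.23 FPKM in ESC, the latter 2 listed at 0 in N. Hoxc9 in the middle of its cluster went the other way, at 0.949 and 0.536 FPKM in ESC and 3.96 and 4.11 FPKM in N. The Hox list of 23 tested genes gave 10 calls higher in N and 4 higher in ESC (4 higher in N and 3 higher in ESC with the 4 libraries alone; median 1.21). Hoxb2 and Hoxc9 were among those lost with the 4 libraries alone (limma adjusted p = 0.0013 and 0.00171), and 8 were higher in ESC without ESC replicate 2. Levels were low throughout, at most 15.8 FPKM in any of the 4 libraries. Of the 23 tested Hox genes, 7 reached 1 FPKM in the ESC libraries alone and 5 in the N libraries alone, so the filter set their direction. Hoxc12, Hoxd13, Hoxb3 and Hoxc9 were among them.

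**Figure D4:**
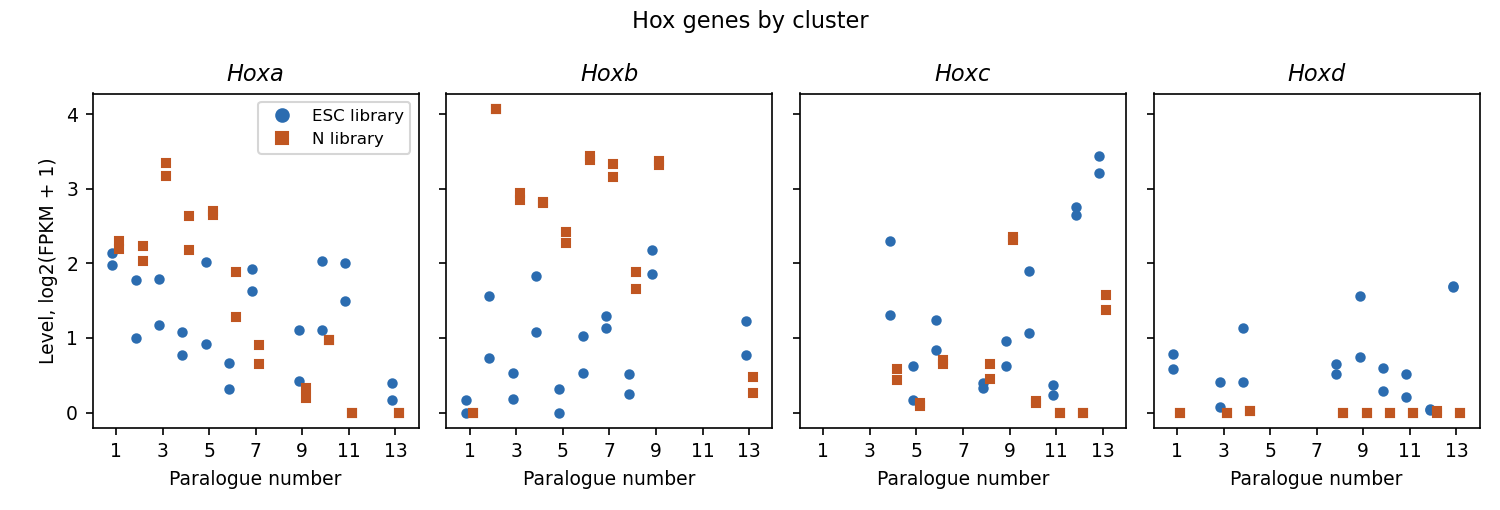
Level of every Hox gene in the table by cluster (panels) and paralogue number (x axis), as log2(FPKM + 1), with 1 point for each ESC and N library. The N libraries lie above the ESC libraries over most of the Hoxb cluster (15.8 and 15.7 FPKM for Hoxb2) and at 0 for Hoxc12 and Hoxd13.

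Antigen presentation and interferon genes were called at shares near those of all genes. H2-T23, a nonclassical class I gene, had 3.77 and 3.63 FPKM in ESC and 41.4 and 39.8 FPKM in N (log2 difference 3.15 ± 0.06), and H2-K1, a classical class I gene, had 29.5 and 21.2 FPKM in ESC and 0.130 and 0.928 FPKM in N (log2 difference -4.14 ± 0.30). Class I genes vary in sequence between the 129 and BALB/c strains, and the effect of that variation on mapping was not tested. B2m, the common light chain, had 151 and 60.5 FPKM in ESC and 138 and 153 FPKM in N and did not pass (limma adjusted p = 0.176). Tlr3, the receptor of double-stranded RNA, had 0.204 and 0.0194 FPKM in ESC and 11.1 and 12.6 FPKM in N (log2 difference 3.53 ± 0.11). Of 22 genes, 5 were called higher in N and 4 higher in ESC (2 higher in N and 3 higher in ESC with the 4 libraries alone; median 0.45), against 16.3% and 21.6% of all genes, and 10 were higher in N without ESC replicate 1. Cytokine genes gave 5 calls higher in N and 0 higher in ESC of 10 (1 higher in N and 0 higher in ESC with the 4 libraries alone; median 1.81), with 3 higher in N when either N library was left out and 3 higher in ESC without ESC replicate 2. Of the 10 cytokine genes, 3 reached 1 FPKM in the N libraries alone and 2 in the ESC libraries alone, so the filter set their direction. Among those that reached it in N alone was Il6, which signals through STAT3. It had 0.188 and 0 FPKM in ESC and 8.79 and 8.56 FPKM in N (log2 difference 3.15 ± 0.12) and passed also with the 4 libraries alone. Leukocyte markers were at or near 0, Ptprc (CD45) at 0 in all 4 libraries, except Cd68, a lysosomal protein of macrophages, which had 20.4 and 17.3 FPKM in ESC and 3.77 and 3.77 FPKM in N.

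Precursor loci of microRNAs gave 20 calls higher in N and 11 higher in ESC of 108 tested, against 16.3% and 21.6% of all genes. Of the 108, 93 held fewer than 30 fragments in each of the 4 libraries. Libraries of this kind do not measure mature microRNAs, and the loci overlap host transcripts. Mir140 was among the 10 largest rises, with 2 and 0 fragments in ESC and 1117 and 863 in N. Its host gene Wwp2, a ubiquitin ligase, had 39.3 and 42.4 FPKM in ESC and 709 and 672 FPKM in N (log2 difference 4.05 ± 0.07), so both were higher in N and reads of the pair cannot be told apart. Mir31 held 0 fragments in both ESC libraries and 80 and 84 in N, and Mir99a was listed at 0 in ESC with 27.0 and 16.1 FPKM in N. Mir205, whose mature product marks basal epithelium, was listed at 0 in ESC and had 5.04 and 3.85 FPKM in N, which did not pass (limma adjusted p = 0.00128) but did with the 4 libraries alone (0.00043). Mir363 went the other way, with 12.7 and 11.2 FPKM in ESC and a listing at 0 in N. Mir25 was level, at 7.28 and 6.98 FPKM in ESC and 7.14 and 6.24 FPKM in N. The mature sequences from RefSeq (GRCm38.p6) are given 5′ to 3′ with the seed, bases 2 to 8, in capitals, for the loci that separate the groups and for Mir25, which shares its seed with Mir363.
miR-140-3p, chr8:107551288-107551308: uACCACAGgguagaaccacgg
miR-31-5p, chr4:88910614-88910635: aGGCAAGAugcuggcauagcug
miR-99a-5p, chr16:77598940-77598961: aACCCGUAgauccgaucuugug
miR-205-5p, chr1:193507503-193507524: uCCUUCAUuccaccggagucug
miR-363-3p, chrX:52741697-52741718: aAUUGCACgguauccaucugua
miR-25-3p, chr5:138165332-138165353: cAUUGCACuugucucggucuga
The seed AUUGCAC of miR-363-3p and miR-25-3p is carried by 7 listed mature microRNAs of the mouse. Lin28a, which blocks maturation of let-7 microRNAs, had 48.7 and 70.7 FPKM in ESC and was listed at 0 in N, and Mirlet7c-1, a let-7 locus, was listed at 0 in ESC and had 4.10 and 2.32 FPKM in N, a call that was lost with the 4 libraries alone (limma adjusted p = 0.00177). The planned list of microRNA genes gave 1 call higher in N and 2 higher in ESC of 7 tested (2 higher in N and 1 higher in ESC with the 4 libraries alone; median -0.53). Of the 7, 2 reached 1 FPKM in the ESC libraries alone and 2 in the N libraries alone, so the filter set their direction.

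The 2 ESC libraries differed from each other in a defined set of genes. Of 12016 genes whose ESC mean reached 1 FPKM, 419 were more than 2-fold higher in replicate 1 and 57 more than 2-fold higher in replicate 2, 3.96% in all, on the log2(FPKM + 1) scale. The same count in N was 25 and 60 of 11206 genes, or 0.759%. The median absolute difference was 0.236 on the log2 scale between the ESC libraries and 0.0865 between the N libraries. With 1 library on each side these are descriptions of the libraries and carry no test.

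Genes of connective tissue led those higher in ESC replicate 1. Of 17 collagen chain genes at this level, 12 were more than 2-fold higher in replicate 1 and 0 in replicate 2. Col1a2, a chain of type I collagen, had 27.2 and 3.39 FPKM in ESC and 3.39 and 2.63 FPKM in N, and Bgn, the proteoglycan biglycan, had 55.1 and 8.84 FPKM in ESC and 1.47 and 1.13 FPKM in N. Fbln2, the matrix protein fibulin 2, had 61.2 and 9.95 FPKM in ESC and 4.40 and 3.51 FPKM in N. For these genes N lay near or below the lower ESC library. Timp2, an inhibitor of matrix metalloproteases, had 44.8 and 6.36 FPKM in ESC and 293 and 271 FPKM in N, and S100a4, a calcium-binding protein of motile cells, had 71.8 and 10.1 FPKM in ESC and 128 and 118 FPKM in N. For these N lay above both ESC libraries, yet neither passed the test (limma adjusted p = 0.00208 and 0.0361). Igfbp4, a binder of insulin-like growth factors, had 36.4 and 5.88 FPKM in ESC and 20.9 and 17.3 FPKM in N, where N lay between the ESC libraries. Ankrd1, a mechanosensitive nuclear protein, had 17.1 and 1.71 FPKM in ESC and 27.7 and 26.2 FPKM in N. The 419 genes together took 1.46% of the fragments of ESC replicate 1 and 0.451% of those of replicate 2. The pluripotency list had 0 of 20 members beyond 2-fold between the ESC libraries, and its summed level was 5873 and 5057 FPKM. The share of feeder fibroblasts in each ESC library was not measured, and its part in these differences was not tested.

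Replication histones were prominent among those higher in ESC replicate 2. Hist1h2ai, a copy of the histone H2A gene, had 351 and 939 FPKM in ESC and 18.6 and 17.9 FPKM in N, and its copy Hist1h2an had 317 and 863 FPKM in ESC and 7.48 and 5.67 FPKM in N. Of 28 Hist genes at the same level, 9 were more than 2-fold higher in replicate 2 and 0 in replicate 1, and their summed levels over 68 listed genes were 804 and 2048 FPKM. Histone copies share sequence, so reads could be split among them. Per the methods poly(A) RNA was selected, and the effect of that step on the histone levels was not tested. Lefty1, an antagonist of Nodal, had 6.66 and 33.8 FPKM in ESC and 0.0534 and 0 FPKM in N, and its neighbour in function Lefty2 had 26.5 and 63.5 FPKM in ESC and was listed at 0 in N. Ripply1, a corepressor of somite formation, had 4.41 and 14.2 FPKM in ESC and 0.189 and 0.129 FPKM in N. Both Lefty genes and Ripply1 were called higher in ESC, but Lefty1 and Ripply1 did not pass without any 1 of the HC11 libraries or with the 4 libraries alone (limma adjusted p = 0.00768 and 0.00622). Hist1h2ai also missed the threshold with the 4 libraries alone (0.00111).

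The differences between the ESC libraries reached the calls. Of 371 tested genes that were higher in ESC replicate 1, 99 were called higher in N, 21 higher in ESC and 251 not called, 142 of the last with a log2 difference of at least 1. In 218 of them both N libraries lay above both ESC libraries, in 63 below both, and in 90 between or overlapping. Over all 12706 genes tested, both N libraries lay above both ESC libraries in 5100 and below both in 6016. Without ESC replicate 1, 244 were called higher in N and 35 higher in ESC, and without ESC replicate 2, 150 and 74. Of 45 tested genes higher in ESC replicate 2, 2 were called higher in N and 15 higher in ESC. When the genes beyond 2-fold between the ESC libraries were left out, a choice made after the data were seen, 1954 genes were called higher in N and 2714 higher in ESC of 12256.

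**Figure D5:**
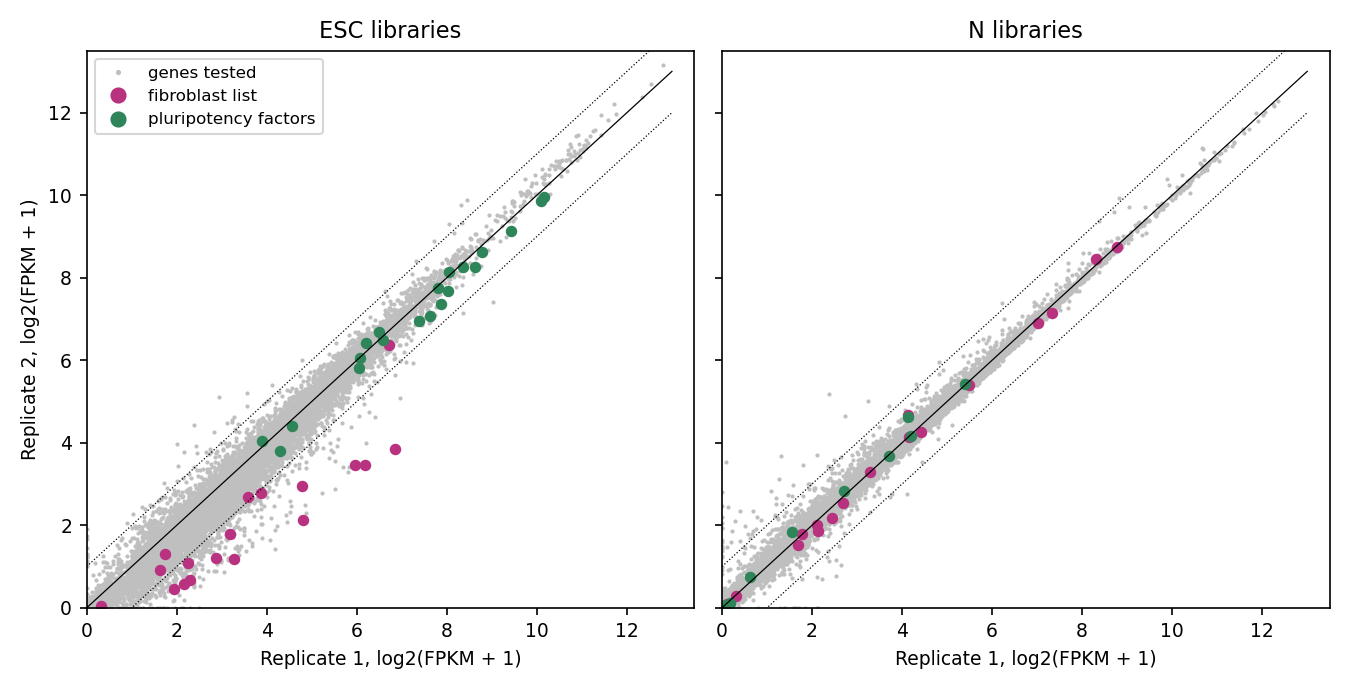
Level of each gene in replicate 1 (x axis) and replicate 2 (y axis) of ESC (left) and N (right), as log2(FPKM + 1), with the fibroblast list and the pluripotency factors in colour. The solid line marks equal levels and dotted lines a log2 difference of 1. Most of the 18 tested fibroblast genes drawn lie below the diagonal in ESC, where 5 of them are within 2-fold, and on it in N.

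The share of genes called varied by chromosome. Of the genes tested, 12654 (99.6%) were matched to a chromosome. Among the autosomes and the X chromosome, chromosome 7 had the largest share called higher in ESC, 29.9% of 999 genes, with a median log2 difference of -0.42, and chromosome 6 the largest share called higher in N, 23.4% of 598 genes, with a median of 0.23. On the X chromosome 17.5% of 423 genes were called higher in N and 27.2% higher in ESC. The genes named in the study for these cells, chosen there on these samples and so no independent evidence, gave 18 calls higher in N and 15 higher in ESC of 38 tested. Median gene length was 2770 bases for genes called higher in N, 2699 for genes called higher in ESC and 2820 for the rest.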

How the data were processed

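RNA of 8 libraries in 4 groups was sequenced, and the 4 libraries of ESC and N were compared. Per the methods, ribosomal RNA was removed and poly(A) RNA selected before paired-end sequencing, and reads were aligned to mm10 with TopHat2 and counted per gene with featureCounts. The authors deposited FPKM values per gene and library, which were used as given. The annotation and the strand setting are not given in the sources used here. Whole fragments were recovered from the FPKM steps for all 16933 genes above 0 in at least 3 libraries (tolerance 0.001), while 0 of 300 control genes, with each value multiplied by a random factor, came out whole, and these fragments served only for depth and counts. Deposited tables of the authors' own comparisons, which hold fold changes, p-values and mean counts, were not used. No column was left without a sample (0 of the per-sample columns).

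Genes with at least 1 FPKM in 2 or more ESC and N libraries were tested on log2(FPKM + 1) with limma 3.58.1 in R 4.3.3 (trend and robust empirical Bayes, statmod 1.5.0), with the contrast N minus ESC in a fit of all 8 libraries. The Benjamini-Hochberg adjustment ran over all 12706 genes. A call needed a log2 difference of at least 1 together with an adjusted p below 0.001, which are the study's thresholds. The pseudocount understates differences of low genes. Where a fit left 1 library in a group, that library was assumed to vary like those of the other groups. The fit was also run on simulated data that gave all libraries the same spread. That run therefore does not cover the wider spread of the ESC libraries. Replicate numbers were not taken as pairs: the deviations of same-numbered ESC and N libraries had a correlation of -0.01. Tables were made with Python 3.11.15, pandas 2.3.3 and numpy 2.4.6, and plots with matplotlib 3.10.9.

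The genes and the 36 gene lists were chosen with earlier results of these data known. Named genes were the 4 markers, those the study names for these cells, the 10 largest rises and 10 largest falls among genes that average 10 FPKM or more in the higher group and whose groups do not overlap, for each list the 4 called members that differed most and the 2 most abundant others, and the 10 genes most different in each direction between the ESC libraries at 10 FPKM or more. Of the 10 rises, 1 is not reported here. Other list members and loci in the text were chosen after their values were seen. Alternatives changed the pseudocount, the filter, the scaling, the block, the libraries, the weights and the thresholds, 1 at a time. CpG content of promoters was not compared, since windows were matched for 77.8% of genes called higher in N and 78.7% of those called higher in ESC, under the 80% needed.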

Additional observations from a re-analysis of the deposited data

How the results depend on the processing

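No call reversed in any alternative. Fitting the ESC and N libraries alone lowered the calls most, from 2065 to 969 higher in N and from 2750 to 1555 higher in ESC. With 1 library left out in turn, calls ranged from 1467 to 2644 higher in N and from 2176 to 2886 higher in ESC, and 1356 and 2032 genes kept their call in all 8 such fits. Adding the replicate block gave 1965 and 2682 calls. The 2 groups share only replicate numbers (correlation of deviations -0.01). Quantile normalization gave 2514 and 2358, so that 51.6% of calls were higher in N against 42.9%. All other alternatives lay within 1.5 times of both counts. Of 208 named genes called, 57 lost the call in some alternative, 51 of them with the ESC and N libraries alone.

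The count of genes beyond 2-fold between the ESC libraries, 476, became 42 when a log2 difference of 2 was asked, 191 at a mean of at least 5 FPKM and 886 with a pseudocount of 0.1. Among the 252 named genes tested, the sign of 5 uncalled genes turned when an ESC library was left out. This count took only genes whose log2 difference in the fit of all 8 libraries exceeded its SE. Other genes were not counted. Over the fits that left out 1 library, the log2 difference ranged from -0.15 to 1.06 for Col4a1, from -0.61 to 0.073 for Phgdh, from -0.053 to 1.25 for B2m, from -2.70 to 0.31 for Col1a1 and from -0.17 to 2.42 for Aebp1. The cause was not tested. Depth limits genes near 0: in ESC, 3 fragments in a gene of 1 kilobase are worth 0.204 and 0.251 FPKM, against 0.129 and 0.131 FPKM in N.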

Other observations

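Of all genes tested, 16.3% were called higher in N and 21.6% higher in ESC, which is the background for the counts in this paragraph. Ribosomal protein genes were close to level between the lines. Of 91 tested Rpl and Rps genes, 3 were called higher in N and 9 higher in ESC, with a median log2 difference of -0.19. Loci of small nucleolar and Cajal body RNAs gave 1 call higher in N and 3 higher in ESC of 83 tested, with a median of -0.29. Collagen chain genes gave 17 calls higher in N and 3 higher in ESC of 28 tested, and their summed levels were 327 and 115 FPKM in the ESC libraries and 1148 and 1062 FPKM in the N libraries. Replication histone loci gave 3 calls higher in N and 5 higher in ESC of 34 tested, with summed levels of 804 and 2048 FPKM in ESC and 103 and 115 FPKM in N. The effect of the poly(A) selection on these levels was not tested.

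Some short loci named as microRNAs had high values in 1 line. Mir692-1 had 170.3 and 217 FPKM in ESC and 0 and 0.401 FPKM in N, and Mir7678 was listed at 0 in ESC and had 181 and 148 FPKM in N. Reads of such loci cannot be told apart from those of overlapping transcripts.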
